A study of Rattus norvegicus with 3 samples.

Results

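The genes described are the nuclear genes of the respiratory chain and ATP synthase in the young rat testis. They were chosen by gene symbol, with earlier results of these data known. Every probe set was taken whose RefSeq accession carries a current rat symbol of an NADH dehydrogenase (Nduf), succinate dehydrogenase (Sdh), cytochrome bc1 (Uqcr, Cyc1), cytochrome c (Cycs), cytochrome c oxidase (Cox4 to Cox8) or ATP synthase (Atp5) gene. This gave 55 of 26419 probe sets and 54 genes. Of these genes, 17 belonged to complex I by symbol, 3 to complex II, 5 to complex III, 13 to complex IV and 15 to ATP synthase (complex V), and the last was Cycs. The reference table held 122 symbols of this kind, and 68 of them matched no probe set and were not analysed here. Among the unmatched were Sdhb, Cyc1, Ndufs3, Ndufs8 and the muscle isoform Cox7a1. Probes differ in brightness, so levels are compared between days within a gene, and an order of genes by brightness describes the probes.

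Mitochondria make most of their ATP by passing electrons from NADH through complex I, or from succinate through complex II, to complex III, cytochrome c and complex IV. The protons pumped on the way drive ATP synthase. Subunits of complex II are all nuclear, whereas the other complexes mix nuclear subunits with some encoded in mitochondrial DNA, which were not analysed here. Several complex IV subunits exist in tissue isoforms, some made in heart and skeletal muscle and others in testis. In the postnatal testis, Leydig cells start steroid synthesis inside mitochondria, and spermatogonia and Sertoli cells differ in how much they rely on respiration or glycolysis.

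The tissue was whole testis of Wistar-Imamichi rats on postnatal days 6, 8 and 10, with the day of birth counted as day 1. The animals carried no stated treatment or allele, and the labels do not say how many animals gave each RNA. Total RNA was labelled with Cy3 and hybridised to NimbleGen one-colour arrays, 1 array per day. The design text states a screen for genes that differ by 2-fold or more between ages.

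With 1 array per day, no difference below has a replicate check and none has a p-value. A difference between arrays may be one of age, of animal or of the array itself, and these cannot be told apart. As a yardstick, 61 genes had more than 1 probe set, each above the floor on day 6 or day 10. The change from day 6 to day 10 varied between probe sets of 1 gene with a median SD of 0.19 on the log2 scale (pooled SD 0.39). These probe sets share the same arrays, so this spread holds no variation between arrays or animals. Median intensities were 220, 221 and 203 on days 6, 8 and 10. A gene counted as above the detection floor where it exceeded the array's median (log2 7.78, 7.79 and 7.67). Of 7 Sertoli cell markers, 6 were on the array by name, and these 6 were above the floor on every day, as were the 3 germ cell markers found by name. From day 6 to day 10, 4 of the 6 Sertoli cell markers were at least 1.5-fold lower (median -0.83), where the background over all genes was 23.7%. Clu and Inha were higher, by 0.53 and 0.30. The median of the 6 was -0.56 with the trend in gene length subtracted (described with gene span further on). The germ cell marker Tex101 was 4.07-fold higher, while the other germ cell markers, Ddx4 and Uchl1, differed by 0.15 and 0.27. The summed intensity on days 6, 8 and 10 was 27599, 25050 and 11955 for 6 Leydig cell markers and 28393, 32488 and 40491 for 3 erythroid markers. It was 1267, 1071 and 3833 for 9 skeletal muscle markers and 6795, 5334 and 12008 for 4 cardiac muscle markers. Such a sum is led by its brightest genes, here Cyp17a1 (log2 14.01, 13.78 and 12.78) for Leydig cells and Hbb (14.66, 14.87 and 15.20) for erythroid cells. Of 5 Leydig cell markers above the floor, 4 were lower on day 10 than on day 6, and Insl3 was higher by 0.38. Of the 3 erythroid markers, 2 were higher (background 51.3%) and Slc4a1 was 2.48-fold lower. The part of these cell types in the differences below was not tested. In whole tissue, fewer cells of a type and less RNA per cell cannot be told apart.

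Most genes of the respiratory chain and ATP synthase were somewhat brighter on day 10 than on day 6. Of the 54 genes, 51 were above the floor on all 3 days and 3 were under it on all 3. Among the 51, 42 (82.4%) were higher on day 10, against a background of 51.3% of 13955 genes above the floor. The median difference, in log2 intensity, was 0.43 for the 51 genes and 0.02 for all genes. At 1.5-fold or more, 17 of the 51 were higher and 1 was lower, where the background was 20.4% higher and 23.7% lower. Only Ndufs7 reached the 2-fold threshold of the submitters' design text (background 8.57% higher and 12.8% lower). The shift was thus made of many small differences, most of them under 2-fold, ranging from -0.81 to 1.19.

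**Figure D1:**
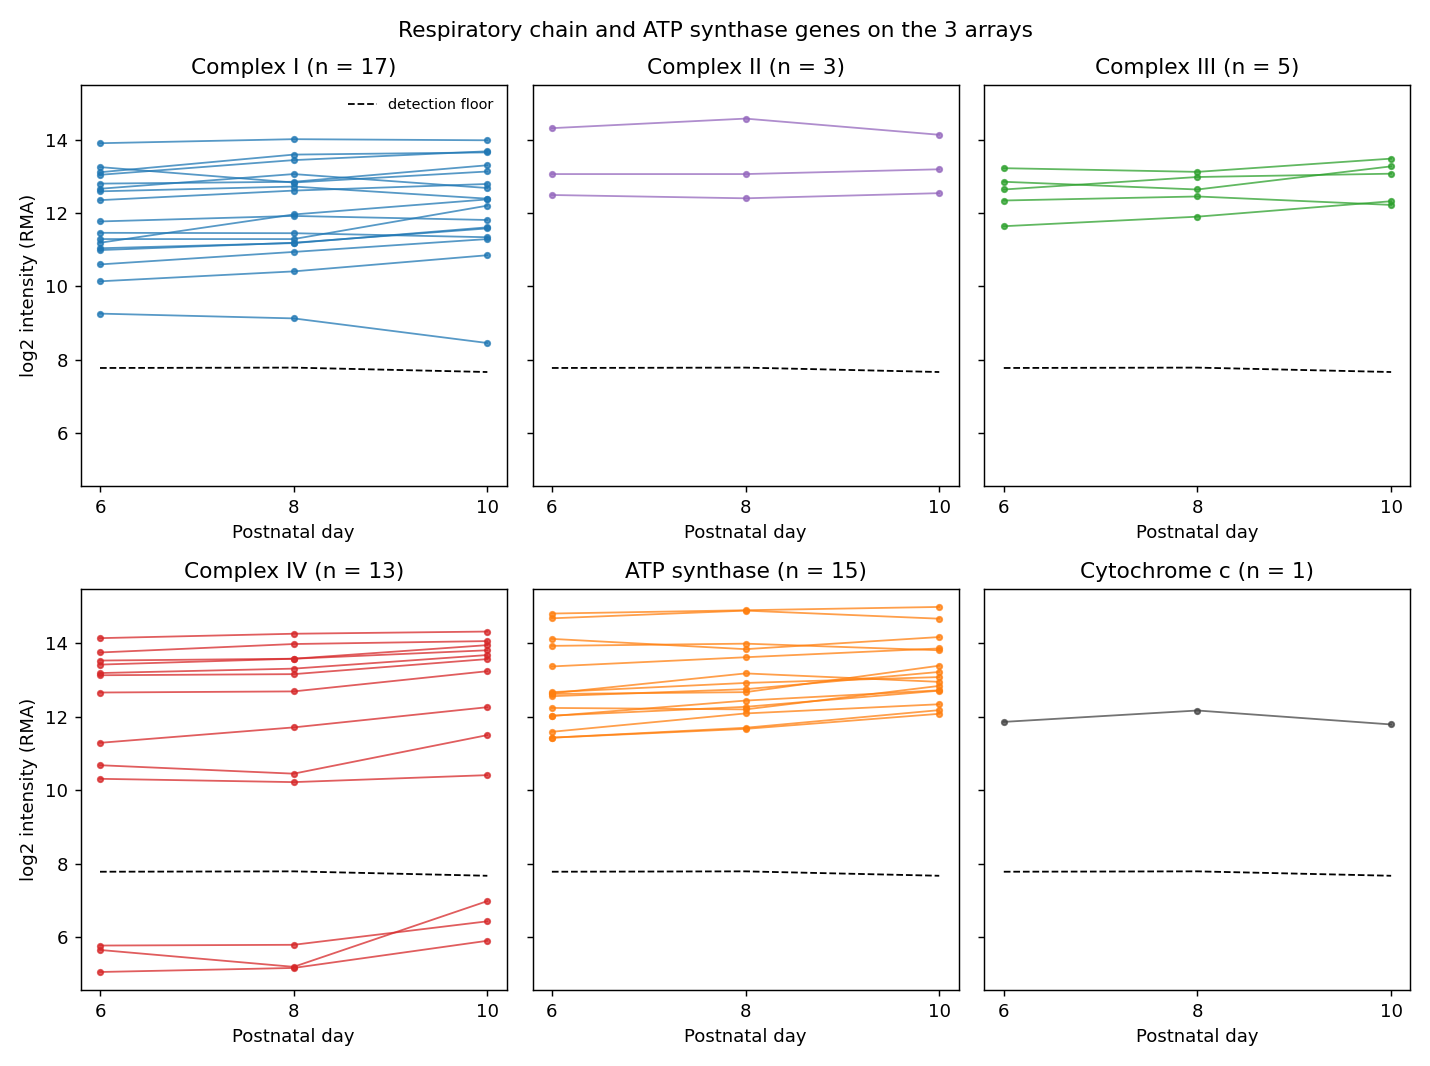
Log2 intensity (y axis, RMA values taken to log2) of each of the 54 genes on postnatal days 6, 8 and 10 (x axis), 1 panel per complex, 1 line per gene and 1 array per day. The dashed line is the detection floor (7.78, 7.79 and 7.67); the 3 complex IV genes beneath it are the tissue isoforms Cox6a2, Cox8b and Cox8c.

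Most genes were higher at each step. From day 6 to day 8, 40 of 51 genes were higher (background 55.3% of 13496 genes), with a median of 0.15 against 0.04 for all genes. From day 8 to day 10, 39 of 51 were higher (background 49.4% of 13969 genes), with a median of 0.25 against -0.01. At 1.5-fold or more, 1 gene was higher and 0 lower on day 8 than on day 6, where the background was 4.91% and 4.79%, and 0 differed by 2-fold or more in either direction (background 0.519% and 0.978%). On day 10 against day 8, 5 were higher and 1 lower, with backgrounds of 19.1% and 24.8%. With the trend in gene length subtracted (described with gene span further on), the medians of the steps were 0.10 and 0.06, so their order turned. These steps share the day 8 array, and with the whole interval they share days 6 and 10. Over the 3 days, 30 of the 51 genes were higher at each step (background 22.9% of 14137 genes). A further 10 were highest on day 8 (background 32%), 9 were lowest on day 8 (26.1%), and 2, Ndufaf4 and Ndufv3, were lower at each step (19%).

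Genes of the chain are known to carry binding letters of the factors NRF1, GABP (an ETS factor) and YY1 in their promoters, so these letters were looked for, a choice made after the data had been seen. Promoters of 48 of the 54 genes were found in the RefSeq table (build GRCr8), each running from 250 bases before to 50 after the gene's start. On either strand, the NRF1 letters GCGCANGCG were in 14 of 48 (29.2%), against 6.26% of 27457 promoters of the same length and 13.7% of the 4582 promoters of named genes above the floor. The ETS letters CCGGAAG were also in 14 (29.2%), against 9.22% and 18.5%. The YY1 letters AAGATGGCG were in 4 (8.33%), against 1.93% and 3.34%. The NRF1 letters can match both strands at overlapping places, and a promoter counts once. They were shortened after a first count: with 1 more C at the end they were in 12 of 48 (25%), against 4.71% and 10.5%. The median GC content was 58% in these promoters, 61% in those of named genes above the floor and 52.3% in all. A match describes the letters and is not a bound site.

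The 4 genes with the YY1 letters are shown because they include the 2 largest differences of complex I and the largest of complex III between days 6 and 10. Each window is 30 bases, on the gene's strand, with the YY1 letters in capitals.
Ndufs7: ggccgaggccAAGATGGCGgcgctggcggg
Ndufs4: tgcccacaggAAGATGGCGgcggtctcaat
Uqcrc1: cggaagttagAAGATGGCGgcgtccgcagt
Atp5pf: aagtgtaggaAAGATGGCGgagtcttagct
They lie at chr7:10110475-10110504 (minus strand), chr2:47794891-47794920 (minus), chr8:118468212-118468241 (plus) and chr11:37375193-37375222 (minus). The letters begin at base 5 of the transcript in Ndufs7 and Ndufs4, at the last base before the start in Uqcrc1 and 111 bases before it in Atp5pf. They contain ATG, the start codon, and whether a match overlaps a gene's coding start was not tested. All 4 genes were higher on day 10 than on day 6, with a median difference of 0.79, against 0.43 for the 41 genes above the floor without these letters, of which 32 were higher. With so few genes, nothing particular to the letters can be read from this.

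Genes with and without the NRF1 or ETS letters had similar medians. The 14 genes with NRF1 letters had a median difference of 0.53 (9 higher) and the 31 without them 0.44 (27 higher). For ETS letters the medians were 0.42 over 14 genes (11 higher) and 0.50 over 31 (25 higher). The 250 bases before the start were examined for the largest positive difference of complexes I, III, IV and V and for Ndufaf4. Those of Ndufs7 (complex I) and Atp5mc1 (complex V) held none of the letters and are not shown. Those of Uqcrc1 (complex III), Cox7a2 (complex IV) and Ndufaf4 follow, with the matched letters in capitals (NRF1 in Uqcrc1 and Ndufaf4, ETS on the reverse strand in Cox7a2).
Uqcrc1: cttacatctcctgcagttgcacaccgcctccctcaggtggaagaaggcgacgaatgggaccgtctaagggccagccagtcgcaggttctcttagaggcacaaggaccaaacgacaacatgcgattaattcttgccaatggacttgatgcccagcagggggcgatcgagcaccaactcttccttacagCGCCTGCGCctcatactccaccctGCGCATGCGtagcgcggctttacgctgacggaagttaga
Cox7a2: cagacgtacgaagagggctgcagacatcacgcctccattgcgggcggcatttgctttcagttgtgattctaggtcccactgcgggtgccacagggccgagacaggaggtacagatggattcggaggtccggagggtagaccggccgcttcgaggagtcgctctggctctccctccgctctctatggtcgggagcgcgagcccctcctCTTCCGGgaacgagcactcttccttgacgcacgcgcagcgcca
Ndufaf4: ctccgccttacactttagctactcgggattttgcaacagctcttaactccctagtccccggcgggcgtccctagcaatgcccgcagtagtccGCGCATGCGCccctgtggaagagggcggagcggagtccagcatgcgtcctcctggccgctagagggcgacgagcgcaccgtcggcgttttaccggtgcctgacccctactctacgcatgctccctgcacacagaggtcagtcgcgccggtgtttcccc
These stretches are at chr8:118467973-118468222 (plus strand), chr8:89601150-89601399 (minus) and chr5:43401545-43401794 (plus) of GRCr8.

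Complex I, which takes electrons from NADH, had 17 genes, all above the floor. Of these, 13 were higher on day 10 than on day 6 (median 0.50, range -0.81 to 1.19, background 51.3% higher). Ndufs7 carries the last iron-sulfur cluster before ubiquinone. It had log2 intensities of 11.19, 11.96 and 12.37 on days 6, 8 and 10, higher at each step and 2.27-fold higher (1.19) by day 10. Most of it was present by day 8, when Ndufs7 was 1.71-fold higher than on day 6. It was the largest difference among the 51 genes.

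Other core subunits, which carry redox centres, did not share this size. Ndufv1, the NADH-binding subunit, had 13.11, 13.59 and 13.65, 1.45-fold higher on day 10 and almost all of it by day 8. Ndufs1, the largest iron-sulfur subunit, had 12.59, 12.72 and 12.39 (-0.21 from day 6 to day 10). Ndufv2, an iron-sulfur partner of Ndufv1, had 11.77, 11.92 and 11.81. The differences of Ndufs1 and Ndufv2 from day 6 to day 10 lay within or close to the 0.19 spread between probe sets of 1 gene.

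Among the accessory subunits, Ndufs4, which holds the NADH-oxidising part of the complex in place, had 11.29, 11.29 and 12.20. It differed by -0.01 from day 6 to day 8 and was 1.87-fold higher on day 10 than on day 6. Ndufa5 was 1.61-fold higher (10.60, 10.94 and 11.29) and Ndufa11, a membrane subunit, 1.55-fold higher (13.04, 13.44 and 13.68). Ndufs5, Ndufb4 and Ndufc2, accessory subunits of the membrane arm, differed by 0.57, 0.50 and 0.44. Ndufv3 had 11.46, 11.45 and 11.34, the same within the probe set spread. By arm, 6 of 8 matrix arm subunits were higher on day 10 than on day 6 (median 0.31) and 4 of 5 membrane arm subunits (median 0.50), against a background of 51.3%.

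Ndufa10, of the membrane arm, and its numbered copy Ndufa10l1 differed in opposite directions on day 8. Ndufa10 had 13.25, 12.83 and 13.13, lowest on day 8, and Ndufa10l1 had 12.66, 13.06 and 12.68, highest on day 8. By day 10 each was back within 0.11 of its day 6 value. Whether the probes of these similar genes also bind each other's transcripts was not tested. The reference table lists such a copy or pseudogene for 32 of the 54 genes, Ndufa10l1 itself included, and their probe sets are uncertain in the same way.

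The 3 complex I assembly factors split. Ndufaf7, a methyltransferase needed for assembly, was 1.64-fold higher on day 10 (10.14, 10.41 and 10.85). Ndufaf3, the only gene here with a pair of probe sets, was higher by 0.59, and its probe sets gave 0.64 and 0.54. Ndufaf4, which works together with Ndufaf3 early in assembly, had 9.26, 9.13 and 8.46, and its difference from day 6 to day 10 was -0.81. It was the largest negative difference among the 51 genes and the only one past 1.5-fold downward. Ndufaf4 was also the dimmest of the 51 (mean log2 level 8.95), with 1 probe set and 5 listed pseudogenes.

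Complex II differed little. Sdha, the flavoprotein that oxidises succinate, had 14.31, 14.57 and 14.13, so it was highest on day 8, and day 10 minus day 8 was -0.44. Sdhc and Sdhd, the membrane anchors, had 12.49, 12.40 and 12.54, and 13.06, 13.06 and 13.19. From day 6 to day 10 the 3 differences were -0.18, 0.05 and 0.13, all inside the 0.19 spread between probe sets.

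Complex III, which passes electrons from ubiquinol to cytochrome c, had 5 genes. Of these, 4 were higher on day 10 than on day 6 (median 0.42, background 51.3% higher). Uqcrc1, a core protein, had 11.64, 11.90 and 12.32 and was 1.61-fold higher. Its partner in the core, Uqcrc2, had 12.34, 12.45 and 12.22 (-0.12), so the pair differed in direction, although the value of Uqcrc2 lay inside the probe set spread. Uqcrh, the hinge protein, differed by 0.43, and Uqcrfs1, the Rieske iron-sulfur protein, by 0.26 (13.22, 13.12 and 13.48). Uqcrq, a small membrane subunit, had 12.85, 12.64 and 13.27, and most of its difference came after day 8.

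Cytochrome c, the soluble carrier between complexes III and IV, was highest on day 8, with Cycs at 11.86, 12.17 and 11.79. Its difference from day 6 to day 10 was -0.06. The reference table lists 10 copies or pseudogenes of Cycs, so its signal may be shared with them.

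Complex IV, which reduces oxygen, was uniform in sign before the trend in span was subtracted. All 10 genes above the floor were higher on day 10 than on day 6 (median 0.43, range 0.10 to 0.97, background 51.3% higher). All 10 were higher on day 10 than on day 8 (background 49.4%). With the trend subtracted, 8 and 7 of the 10 were above 0. The 8 ubiquitous subunits were also all higher on day 8 than on day 6, by 0.03 to 0.42 (background 55.3%). Their median at that step, 0.12, lay inside the probe set spread of 0.15. With the trend subtracted, 5 of the 8 were above 0 (median 0.02). Cox7a2 had the largest difference, at 11.29, 11.71 and 12.26, 1.95-fold higher on day 10. Cox7b had 12.66, 12.69 and 13.24 and was higher by 0.58, just short of 1.5-fold. Cox4i1, Cox5a, Cox6c, Cox8a and Cox5b differed by 0.49, 0.44, 0.42, 0.39 and 0.31. Cox6a1 differed least of the ubiquitous subunits, at 14.14, 14.26 and 14.32 (0.17).

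The tissue isoforms of complex IV differed from each other. Cox6b2, the testis form of a subunit facing the intermembrane space, had 10.68, 10.45 and 11.50, so that it was 2.06-fold higher on day 10 than on day 8. It was the only gene of the 51 past 2-fold at that step (background 8.56% higher and 13.7% lower), and it was 1.76-fold higher than on day 6. With the trend in span subtracted, its difference from day 8 to day 10 went from 1.04 to 0.63, under 2-fold. Cox4i2, the form known from lung and low oxygen, was nearly level at 10.31, 10.22 and 10.41.

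Cox8c, a second testis form, was under the floor on each day, at 5.05, 5.16 and 5.90. The heart and skeletal muscle forms Cox6a2 (5.65, 5.19 and 6.98) and Cox8b (5.77, 5.79 and 6.43) were under it too, and no fold is given for these 3. Each of the 3 had its highest value on day 10, when the 95th percentile of olfactory and vomeronasal receptor probe sets, part of the detection floor rule, was also highest (5.70, 5.60 and 6.11). Cox8c lay under that percentile on each day, Cox8b above it on each day and Cox6a2 above it on day 10 only. Of the 9 skeletal muscle markers on the array, 7 were also highest on day 10, as were all 4 cardiac muscle markers. Among the 7, Ckm, Tnni2 and Atp2a1 were under the floor on each day. The share of all genes highest on day 10 was not counted. Myoglobin (Mb) had 7.09, 6.30 and 9.76, and skeletal actin (Acta1) 7.82, 6.92 and 9.81. Myosin Myh4 (6.74, 5.81 and 6.60) and Actn3 (5.74, 5.51 and 5.58) were highest on day 6. Of the skeletal list, 3, 2 and 4 were above the floor on days 6, 8 and 10. Of the 2 brown fat markers on the array, 0 were above it on any day. The part of muscle RNA in the values of respiratory chain genes was not tested.

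ATP synthase had the highest median of the complexes, at 0.60, with 13 of 15 genes higher on day 10 than on day 6 (background 51.3%) and 8 of them at least 1.5-fold (background 20.4%). The difference between complexes has no replicate check, and with the trend in gene length removed the medians of complexes I and V were alike, at 0.22 and 0.21. Those of complexes II, III and IV were then -0.02, 0.24 and 0.28, so ATP synthase no longer had the highest. With that trend removed, 0 of the 8 genes were still at least 1.5-fold higher.

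In the F1 head, the alpha, beta and gamma subunits, which form the catalytic ring and its rotor, were nearly level. Atp5f1a (alpha) had 14.68, 14.89 and 14.67. Atp5f1b (beta) had 14.81, 14.90 and 14.99, and Atp5f1c (gamma) 13.93, 13.99 and 13.81. Their differences from day 6 to day 10, at -0.01, 0.18 and -0.12, lay inside the 0.19 spread between probe sets. They were also the brightest of the head, and across the 51 genes the difference fell with level (rho -0.37). The part of brightness here was not tested. The small delta and epsilon subunits, at the foot of the rotor, were higher. Atp5f1d had 11.43, 11.70 and 12.18, and Atp5f1e 11.59, 12.09 and 12.34, each 1.68-fold higher on day 10.

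All 9 subunits of the peripheral stalk and membrane part were higher on day 10 than on day 6 (median 0.64, range 0.05 to 0.78, background 51.3% higher). Subtracting the trend in span left 8 of the 9 above 0, with a median of 0.40. Atp5mc1 and Atp5mc2 encode the same mature c subunit of the proton-driven ring from separate genes. Atp5mc1 had 12.62, 12.67 and 13.39, 1.71-fold higher on day 10, nearly all of it after day 8. Atp5mc2 had 12.64, 13.18 and 12.95, and was highest on day 8. The pair thus had different time courses, although both have listed copies in the table.

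Among the other membrane and stalk subunits, Atp5mk, a small membrane subunit linked to dimers of the enzyme, was 1.63-fold higher on day 10 (12.02, 12.44 and 12.72). Atp5po, the stalk protein that grips the head, was 1.60-fold higher, Atp5me 1.58-fold, Atp5mg 1.56-fold and Atp5pf 1.51-fold. Atp5pd, of the stalk, differed by 0.48. Atp5pb, also of the stalk, had 14.12, 13.84 and 14.17, lowest on day 8 and level between days 6 and 10. The inhibitor Atp5if1, which stops the enzyme from running backwards, was 1.32-fold higher on day 10 (12.67, 12.92 and 13.08).

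**Figure D2:**
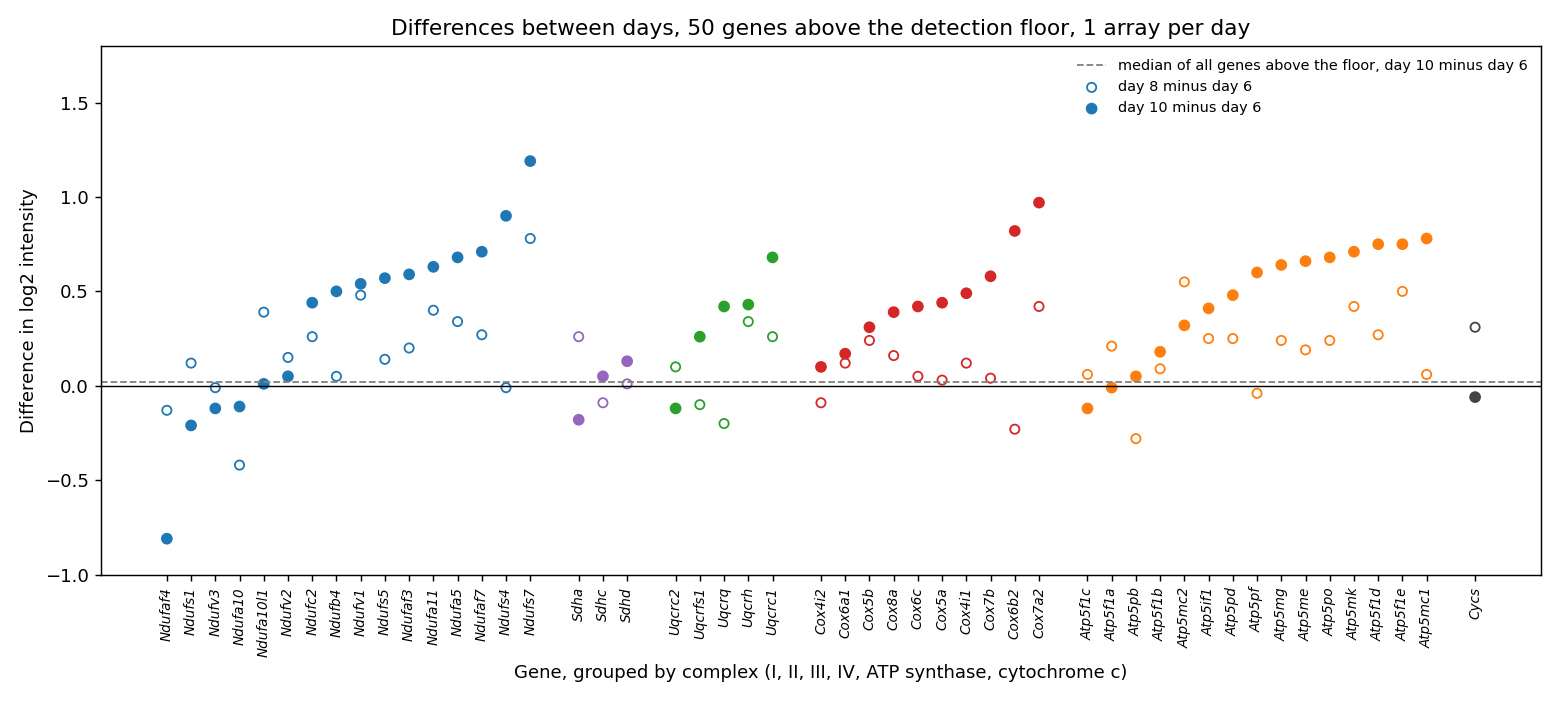
Difference in log2 intensity (y axis) for 50 of the 51 genes above the floor, grouped by complex and ordered by size (x axis), with filled points for day 10 minus day 6 and open points for day 8 minus day 6, from 1 array per day. All 10 complex IV genes lie above 0 on day 10, while the 3 complex II genes lie between -0.18 and 0.13 and Ndufaf4 is lowest at -0.81.

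The differences varied with the length of the gene and with its brightness. Across the 51 genes, Spearman's rho between the day 10 minus day 6 difference and genomic span was -0.30, and across 5518 named genes it was -0.43. These are relations across genes on shared arrays, and genes are not independent replicates. The genes of the chain are short, with a median span of 7.41 kb against 15 kb for all named genes. The 17 shortest and the 17 of middle span had median differences of 0.49 and 0.50, and the 17 longest 0.08. Level had rho -0.37 with the difference across the 51 genes and 0.03 across all named genes. By level, the dimmest, middle and brightest 17 genes had medians of 0.68, 0.43 and 0.26, each with 14 genes higher.

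Named genes of like span and level were less far above 0. Of 1127 such genes (span 2.10 to 22.3 kb, mean log2 level 11.25 to 13.97), 59.2% were higher on day 10 than on day 6, with a median of 0.12. With the trend in span subtracted, 39 of the 51 genes were above 0 and the median was 0.21, where that of all named genes was 0.01. Of the 42 genes above 0 before, 36 stayed so. Ordered into 10 span groups of named genes, 37 of the 51 lay above the median of their own group. Ndufs4, with a span of 110 kb, stood furthest above genes of its length (1.40 with the trend subtracted), followed by Ndufs7 (0.98) and Cox7a2 (0.91). Subtracting the trend took 6 genes from above to below 0, namely Cox6a1 (-0.17), Cox5b (-0.11), Atp5f1b (-0.07), Atp5pb (-0.07), Sdhd (-0.02) and Ndufa10l1 (-0.45). It took 3 genes, Ndufa10 (0.13), Uqcrc2 (0.06) and Ndufs1 (0.01), from below to above 0. Cycs, already negative, went to -0.47.

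**Figure D3:**
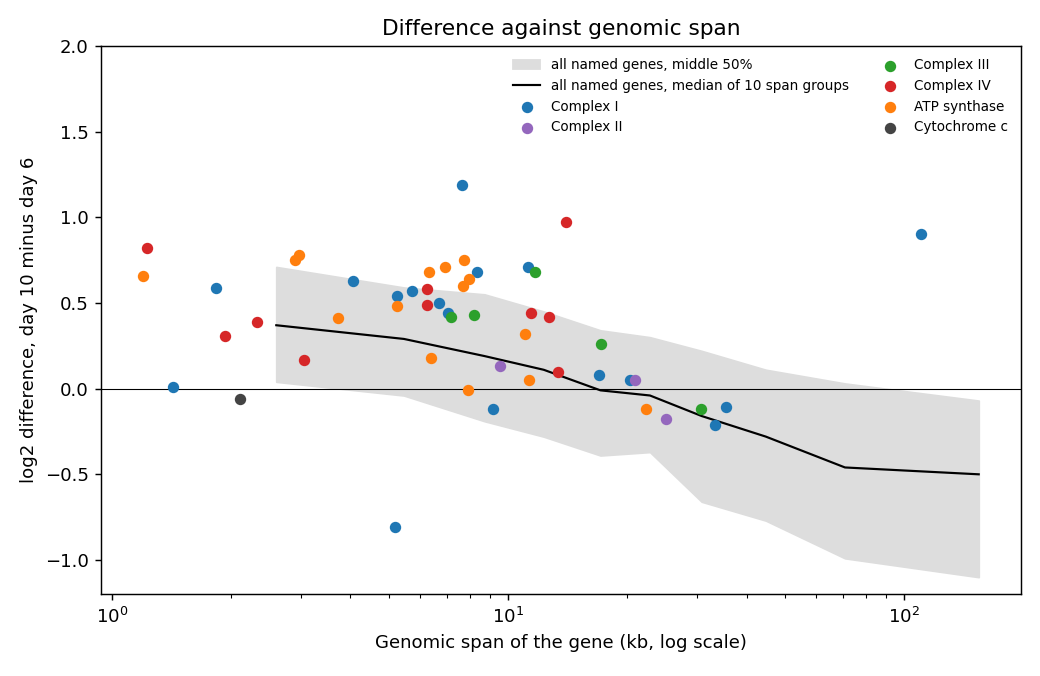
Difference in log2 intensity, day 10 minus day 6 (y axis), against genomic span in kb (x axis, log scale), with 51 genes as points coloured by complex and, for 5518 named genes in 10 equal groups by span, the median (line) and middle 50% (grey). Of the points, 37 lie above the median of their own span group, and Ndufs4 at 110 kb stands alone at 0.90.

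Other mitochondrial genes did not share one direction. Enzymes of the tricarboxylic acid cycle, which feeds electrons to the chain, had 7 of 11 genes lower on day 10 than on day 6 (median -0.24). Citrate synthase (Cs), the entry enzyme, had 13.19, 13.15 and 12.49, 1.63-fold lower, and Dlst, of the 2-oxoglutarate dehydrogenase complex, 12.89, 13.02 and 12.25, 1.56-fold lower. The malate dehydrogenase Mdh2 had the largest positive difference, at 0.45 (12.42, 12.75 and 12.87). Between days 6 and 10, 2 of 11 (Cs and Dlst) were at least 1.5-fold lower (background 23.7%). From day 8 to day 10, 2 of the 11 were higher (background 49.4%) and 5 were at least 1.5-fold lower (background 24.8%), among them Ogdh, with 12.11 and 11.10. Subtracting the trend in span put 5 of the 11 above 0 at that step, while the median went from -0.15 to -0.23. From day 6 to day 8, 7 of 11 were higher (background 55.3%).

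The carriers of ATP and phosphate and the outer membrane porins were level or lower, with 3 of 6 higher and a median of 0.00. Slc25a4, an ADP/ATP carrier, had the largest positive difference (0.13), and the porin Vdac1 had 12.76, 12.58 and 12.17 (-0.59). Of 8 assembly factors outside the symbols used here, 6 were higher (median 0.32), with Bcs1l, which inserts the Rieske protein into complex III, 1.83-fold and Surf1, a complex IV assembly factor, 1.77-fold higher. Sdhaf2, which adds flavin to Sdha, had -0.24.

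Of 13 regulators of mitochondrial gene expression above the floor, 7 were higher (median 0.21). Mterf3, which acts on mitochondrial transcription, had the largest positive difference (0.67). The GABP subunit Gabpb1 had 11.70, 12.05 and 10.85 with the largest negative difference (-0.85). Tfam, which packages mitochondrial DNA, had 11.59, 11.55 and 11.80, and the coactivator Ppargc1a was under the floor on each day. Of 11 cristae and supercomplex genes, 8 were higher (median 0.21), from Crls1, the cardiolipin synthase, at -0.26 to Higd1a, a hypoxia-inducible inner membrane protein, at 0.79. Against all genes (51.3% higher, median 0.02), only the tricarboxylic acid cycle list had a negative median among these 5 lists. With the trend in span subtracted, the median of the carriers and porins was -0.28 (1 of 6 above 0) and that of the tricarboxylic acid cycle -0.17.

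**Figure D4:**
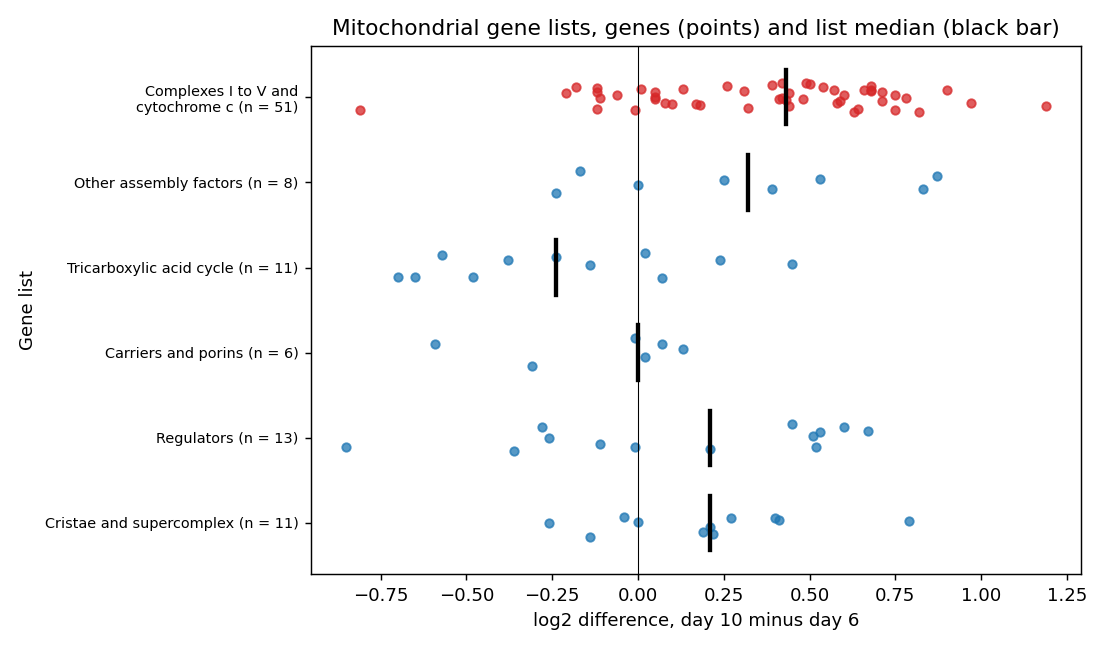
Difference in log2 intensity, day 10 minus day 6 (x axis), for the genes above the floor in 6 mitochondrial gene lists (y axis), with 1 point per gene and a black bar at the list median. The 51 respiratory chain and ATP synthase genes have a median of 0.43 and the 11 tricarboxylic acid cycle genes -0.24.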

How the data were processed

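Total RNA of whole testis from 3 ages was hybridised to 3 one-colour arrays. The authors deposited 1 linear intensity per RefSeq accession and array, made with RMA per the submitters' processing notes; its version and settings, and any genome build, were not given in the sources used here. RMA aligns the arrays' distributions and so hides any shift common to most genes. The deposited series table matched the arrays' own files (largest difference 0). The second column of each array's own file, headed SE_EXPRS, has no stated scale and was not used.

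Intensities were taken to log2. Accessions were matched without version to the RefSeq table of GRCr8, which named 9747 of 26419 probe sets, and 16672 are unnamed here. Probe sets of 1 symbol were averaged, giving 26299 genes. The floor was the higher of each array's median and the 95th percentile of 1239 olfactory and vomeronasal receptor probe sets. Comparisons held the genes that exceeded the floor on either array. Calls used 2-fold, from the design text, and 1.5-fold. The span trend was a lowess fit on log10 span (fraction 0.3, 3 iterations; tested on simulated data). The genes of like span and level lay between the 10th and 90th percentiles of the members that were above the floor on all days, for both measures. The number of arrays limits the precision.

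Members and lists were chosen with earlier results of these data known. Named genes were those differing by 2-fold, the largest positive and negative differences per complex and list, core subunits, isoforms and assembly factors; the remaining members are named to account for them, except 1 gene that is counted but not reported here. Promoter letters were searched on both strands of 300 bases; the motifs, and the length of the NRF1 letters, were chosen after the data had been seen. Alternatives covered scaling, floor, probe set summary, span and membership. Python 3.11.15, pandas 2.3.3, statsmodels 0.14.6, R 4.3.3 and limma 3.58.1 were used.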

Additional observations from a re-analysis of the deposited data

How the results depend on the processing

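No paired analysis was possible because each day has 1 array. Under 13 alternatives, the median difference of the genes was above 0 in all 3 comparisons. It ran from 0.21 to 0.55 for day 10 against day 6, from 0.08 to 0.20 for day 8 against day 6 and from 0.06 to 0.37 for day 10 against day 8. Some alternatives could hardly change it. A floor required on both arrays kept the same 51 genes, and the way of summarising probe sets touched only Ndufaf3 among them.

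Subtracting the span trend gave the lowest median for day 10 against day 6 (0.21), with 4 genes at least 1.5-fold higher in place of 17, and 2 higher and 3 lower in place of 5 and 1 for day 10 against day 8. It also took complexes I and V to 0.22 and 0.21. Relative to named genes of like span and level, an alternative chosen after seeing the data, 9 genes were at least 1.5-fold higher for day 10 against day 6 and 3 for day 10 against day 8. Without the genes that have listed copies, 19 remained, with 7 and 2 such genes and 0 lower in either comparison, fewer genes being counted. Without assembly factors and the inhibitor, 0 were 1.5-fold lower in either comparison, since Ndufaf4 was left out. Day 10 against day 8 had 0 lower after median centring, quantile or cyclic loess normalization, and 9 higher after median centring or 8 with no floor; beyond the added genes under the floor, the cause was not tested. Centring moved the median of all genes from 0.02 to 0.14 for day 10 against day 6. Other recomputed values stayed within the probe set spread, the 95% exact binomial interval or 1.5 times the count. That interval takes genes as independent, which they are not, so it served only as a rule for this listing. By it, a share of 64.7% above 0, relative to genes of like span and level, passed as unchanged from 78.4% for day 8 against day 6.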
